A study of Danio rerio with 8 samples.

Results

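Amino acid transporter genes were taken as all genes of the counts whose symbol starts with slc1a, slc3a, slc6a, slc7a, slc36a, slc38a or slc43a in any letter case. These 7 families of solute carriers gave 81 members among the 32520 genes listed, and 38 of the 81 had enough counts to be tested for a difference between *miR-34a-/-* and wild-type zebrafish embryos. Symbols are spelled as in the study's supplementary sheets where a symbol could be read there, and otherwise as in a table of gene names. That table writes many zebrafish genes with a human-style symbol in capitals. Duplicate copies can therefore share a symbol and are told apart here by their Ensembl identifier.

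Whole embryos at 8 hpf, in the middle of gastrulation, were compared between 4 wild-type and 4 *miR-34a-/-* libraries. Both lines share the *casper* background, derived from the AB strain, in which most pigment is missing, so the pigment mutations are common to both groups. By the paper, the mutants were bred as a separate homozygous line, so that maternal miR-34a was absent too. The wild-type embryos were therefore not their siblings, and the paper allows that the lines may differ genetically. It also allows that the mutant may develop somewhat differently despite careful staging. The *miR-34a-/-* line carries a deletion of the microRNA gene made with CRISPR/Cas9 and guides on either side of it, and the labels name no treatment. Each library was made from polyadenylated RNA of a pool of embryos. The pool was 30 by the study's sequencing methods, and up to 50 by its RNA extraction methods and the sample labels. Nothing states that the pools of a genotype came from separate clutches, so p-values measure the spread between these pools, which may be technical.

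Amino acids cross membranes through carriers that differ in substrate and in what drives them. SLC1 carriers depend on sodium to take up glutamate or to exchange neutral amino acids. Many SLC38 carriers use the sodium gradient to take up small neutral amino acids and glutamine. Most SLC6 carriers use sodium and chloride to move amino acids or transmitters. Light chains of the SLC7 family exchange large neutral or cationic amino acids after they pair with a heavy chain of the SLC3 family, whereas the cationic carriers of SLC7 work without one. SLC43 carriers let large neutral amino acids pass without an ion gradient, and some SLC36 carriers couple small amino acids to protons, often at the lysosome. At the gastrula stage the embryo still lives on the protein stored in its yolk.

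A microRNA guides a silencing complex to messengers that pair with its seed, bases 2 to 8, and miR-34a is induced by p53 in mammals. The sequence is shown because its loss is the only difference that the labels give between the groups. It was read from the perfect target site of the study's reporter oligonucleotide, of which it is the reverse complement, and is written 5′ to 3′ with the seed, and the bases that pair with it, in capitals. The 3′ untranslated regions of the members were not searched here.
miR-34a: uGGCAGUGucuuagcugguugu
perfect target site: acaaccagctaagaCACTGCCa

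The libraries held 7132045 to 15724724 counts on genes, and the members took between 0.392% and 0.483% of them. One count was worth between 0.0642 and 0.140 CPM (counts divided by a library's normalized size and multiplied by 1000000), and 3 counts were taken as the floor of a library. The deleted gene *mir34a* had 0 counts in all 8 libraries, so these counts do not check the genotype labels. Markers of the gastrula were present in every library, with a summed level of 4182 to 4387 CPM in wild-type and 3834 to 4179 CPM in *miR-34a-/-* libraries, and 2 of 21 tested markers were higher and 12 lower in the mutant at an adjusted p-value under 0.05. Of all genes tested, 23.0% were higher and 22.4% lower by the same rule. Of the yolk syncytial layer's markers, 1 of 9 tested was higher and 6 were lower, with summed levels of 1227 to 1563 against 1152 to 1208 CPM. For the enveloping layer, 1 of 9 tested markers was higher and 2 lower, with summed levels of 15495.5 to 17579.8 against 15841.5 to 16659.6 CPM. For germ cells 5 of 8 were higher and 1 lower, and the summed levels overlapped, at 203 to 231 against 196 to 219 CPM. The germ cell marker called lower, *DDX4*, went from a mean of 95.2 to 72.8 CPM. Another, *h1m*, was not called and went from 84.7 to 77.0 CPM. These markers make up most of the sum, since the 5 higher ones had means of at most 17.1 CPM, so the sum says little about them. No gene of these lists was at 0 in all libraries, and the part of such shifts in the results on carriers was not tested. In whole embryos, fewer cells of a type and less RNA per cell cannot be told apart.

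Of the 81 members, 75 had at least 1 count and 6 had none. Detection differed by family. All 3 SLC3 and both SLC36 members were tested, as were 10 of 13 SLC38, 10 of 18 SLC7 and 4 of 6 SLC43 members. Only 7 of 27 SLC6 and 2 of 12 SLC1 members passed the filter, and these are the families that hold most of the carriers known from neurons, glia, gut and kidney. The 43 untested members had totals of 0 to 74 counts over all libraries, with a median of 12, while the lowest total among tested members was 57. Reads were unevenly spread over the members: *SLC7A8*, which encodes a light chain known as LAT2, held 32.5% of all member counts (29.5% to 34.2% across libraries), *SLC3A2* 15.2% and *SLC43A2* 11.6%. These shares are of counts, which are not corrected for gene length.

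At an adjusted p-value under 0.05 (quasi-likelihood test of edgeR, adjusted by Benjamini-Hochberg over 13842 genes), 8 of the 38 tested members were higher and 15 lower in *miR-34a-/-* embryos. Over all genes tested, 23.0% were higher and 22.4% lower, against 21.1% and 39.5% of the members, so 60.5% of the members were called where the background was 45.4%. Past a change of 1.5-fold, 5 members rose and 7 fell, 13.2% and 18.4% of those tested, beside 8.84% and 8.76% of all genes. Tested against a change of 1.5-fold itself (glmTreat), 3 members were higher (*SLC7A1*, *slc3a1* and *slc38a8b*) and 3 lower (*SLC38A5*, *SLC6A2* and *slc6a16a*). That test called 1078 of all 13842 genes. Of the members named, *SLC6A2* reached 1 CPM only in wild-type libraries and *slc3a1* only in mutant libraries. Each therefore passed the filter only through the group where it was high. The values of the genotypes did not overlap for 18 members (47.4%), beside 38.8% of all genes, and 9 of these were higher and 9 lower. The median log2 fold change was -0.15 over the members and -0.00 over all genes, with median sizes of 0.33 and 0.23. The counts and medians are descriptions of the members, and no test compared them with other genes.

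**Figure D1:**
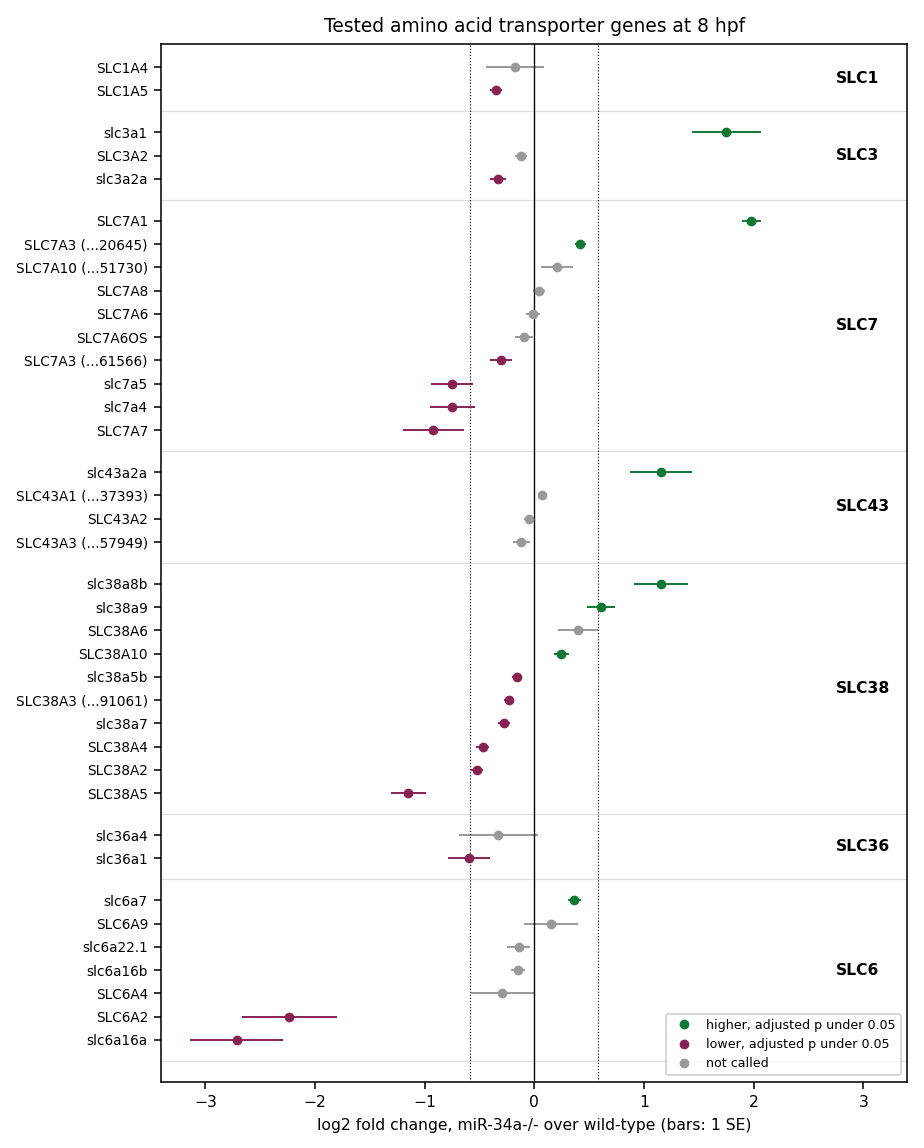
Log2 fold change of each of the 38 tested members (x axis, *miR-34a-/-* over wild-type, bars 1 SE), grouped by family, with dotted lines at 1.5-fold in either direction. SLC38 has 6 lower and 3 higher of 10 members, *SLC7A1* is farthest to the right at 1.98, and *slc6a16a* and *SLC6A2* are farthest to the left at -2.72 and -2.24.

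Among the heavy chains, which carry light chains to the plasma membrane, the main chain *SLC3A2* moved little, *slc3a2a* fell and the rare *slc3a1* rose. *slc3a1*, the heavy chain known as rBAT, stood at 0.80, 0.85, 0.79 and 0.14 CPM in the wild-type libraries and at 2.20, 2.64, 2.33 and 2.18 CPM in the *miR-34a-/-* libraries. All mutant libraries lay above all wild-type libraries, and wild-type replicate 4 was the lowest, with a single count. Only the mutant libraries reached 1 CPM, so the gene passed the filter through them alone. The log2 fold change was 1.75 ± 0.32 (SE, n = 4 per genotype; adjusted p = 5.1e-05 by edgeR). *SLC7A9*, the light chain that pairs with rBAT in mammals, had 6 counts in all libraries together and was not tested. *slc3a2a*, a copy of the heavy chain CD98 (4F2hc), gave 162, 114, 160 and 152 CPM in wild-type and 119, 121, 116 and 111 CPM in *miR-34a-/-* embryos. The genotypes overlapped through wild-type replicate 2, and the log2 fold change was -0.33 ± 0.07 (adjusted p = 0.00045 by edgeR). The copy listed as *SLC3A2*, with more counts, was at 698, 596, 779 and 664 CPM in wild-type and 622, 643, 630 and 623 CPM in mutant libraries. Its log2 fold change of -0.12 ± 0.05 was not called (adjusted p = 0.056 by edgeR), while it was called when wild-type replicate 2 was left out (log2 fold change -0.18) and when libraries were scaled by total counts or by the upper quartile (-0.13 and -0.14) or no filter was applied (-0.12). Without wild-type replicate 3 it shrank to -0.057 (adjusted p = 0.29 by edgeR).

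Among the SLC7 light chains that work with CD98, those with the most counts differed little between the genotypes. *SLC7A8* had 1351, 1167, 1545 and 1442 CPM in wild-type and 1433, 1493, 1270 and 1474 CPM in *miR-34a-/-* libraries. The genotypes overlapped throughout, with a log2 fold change of 0.04 and an approximate 95% interval of -0.07 to 0.16. *SLC7A6*, a light chain of the y+LAT type that exchanges cationic for neutral amino acids, likewise gave -0.02 (interval -0.14 to 0.11). *SLC7A6OS*, which the symbol rule includes although it is named for lying opposite *SLC7A6* and is no carrier, gave -0.10 ± 0.08 (adjusted p = 0.35 by edgeR). Whether strand was used in counting is not given in the sources used here, so reads of this gene and *SLC7A6* may not be separated. Of the light chains with few counts, *slc7a5* and *SLC7A7* fell and *SLC7A10* was not called. *slc7a5*, LAT1, the carrier of leucine and other large neutral amino acids, was at 3.55, 5.39, 4.50 and 4.06 CPM in wild-type and 2.61, 2.64, 2.94 and 2.44 CPM in *miR-34a-/-* embryos. The genotypes did not overlap, and the log2 fold change was -0.75 ± 0.19 (adjusted p = 0.0023 by edgeR). *SLC7A7*, the other y+LAT light chain, fell from 2.17, 1.42, 2.38 and 2.80 CPM to 1.05, 1.00, 1.47 and 1.09 CPM. Wild-type replicate 2 lay just below the highest mutant library, and the log2 fold change was -0.92 ± 0.28 (adjusted p = 0.0084 by edgeR). The Asc-1 type light chain *SLC7A10* (ENSDARG00000051730) was not called, at 0.21 ± 0.15 (adjusted p = 0.25 by edgeR).

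Cationic amino acid transporters, which carry arginine and lysine, held the change with the smallest p-value of all members. *SLC7A1*, known as CAT1, stood at 20.8, 14.2, 18.1 and 20.7 CPM in wild-type and at 75.0, 73.6, 66.8 and 71.7 CPM in *miR-34a-/-* libraries. The genotypes were far apart, and the fitted rise was 3.94-fold, a log2 fold change of 1.98 ± 0.08 (adjusted p = 8.7e-17 by edgeR). The copy *slc7a1a* had 26 counts in all and was not tested. Of the copies of *SLC7A3*, or CAT3, ENSDARG00000020645 rose from 154, 146, 144 and 131 CPM to 201, 193, 194 and 185 CPM. These values did not overlap, with a log2 fold change of 0.42 ± 0.05 (adjusted p = 5.9e-08 by edgeR). The other copy, ENSDARG00000061566, went the other way, from 19.6, 20.9, 16.0 and 17.8 CPM to 14.8, 14.7, 17.0 and 14.0 CPM. Mutant replicate 3 lay above wild-type replicate 3, and the log2 fold change was -0.30 ± 0.10 (adjusted p = 0.016 by edgeR). That call was lost without wild-type replicate 2 (log2 fold change -0.24, adjusted p = 0.075), without mutant replicate 4 (-0.26) and in DESeq2 (-0.30). *slc7a4*, a relative of the cationic carriers without an established substrate, was at 4.12, 4.92, 6.17 and 6.44 CPM in wild-type and 4.39, 2.91, 1.84 and 3.46 CPM in mutant embryos. Mutant replicate 1 reached into the wild-type range, and the log2 fold change was -0.75 ± 0.20 (adjusted p = 0.0040 by edgeR).

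**Figure D2:**
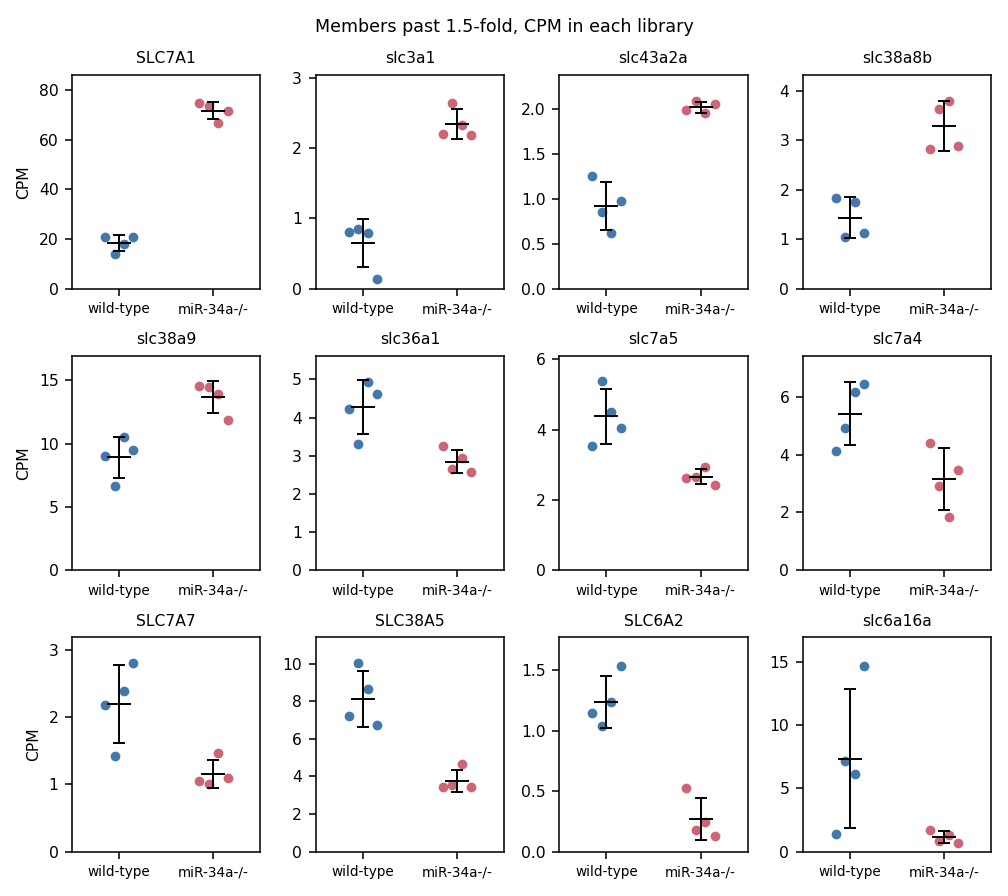
CPM of the 12 members changed past 1.5-fold in each of the 4 wild-type (blue) and 4 *miR-34a-/-* (red) libraries, with the mean and SD in black and a y axis from 0 for each gene. *SLC7A1* lies between 14.2 and 20.8 CPM in wild-type and between 66.8 and 75.0 CPM in mutant libraries, and 1 wild-type library of *slc6a16a* sits among the mutant values.

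SLC38 was the family with the largest share of called members, 9 of 10 tested, and 6 of these were lower, beside 45.4% called and 22.4% lower among all genes. Its summed level was 670 to 720 CPM in wild-type and 573 to 587 CPM in *miR-34a-/-* libraries. *SLC38A2*, the sodium-coupled uptake carrier SNAT2, which rises in mammalian cells that lack amino acids, stood at 124, 132, 135 and 118 CPM in wild-type and 86.9, 82.3, 89.8 and 94.8 CPM in mutant libraries. The groups were separate, with a log2 fold change of -0.53 ± 0.05 (adjusted p = 9.2e-09 by edgeR). *SLC38A4*, or SNAT4, fell from 71.7, 74.8, 85.6 and 80.2 CPM to 57.0, 59.0, 51.7 and 57.3 CPM, also without overlap (-0.47 ± 0.06, adjusted p = 4.9e-07 by edgeR). Among carriers of the glutamine and histidine preferring system N, *SLC38A5* had the largest fall, from 7.21, 10.0, 8.64 and 6.72 CPM to 3.45, 3.55, 4.65 and 3.46 CPM. The fitted fall was 2.22-fold, with separate groups and a log2 fold change of -1.15 ± 0.16 (adjusted p = 1.8e-06 by edgeR). *slc38a5b*, with many more counts, had 133, 132, 131 and 121 CPM in wild-type and 118, 113, 121 and 112 CPM in mutant libraries. Its groups overlapped at their edges, with a log2 fold change of -0.16 ± 0.05 (adjusted p = 0.0087 by edgeR). *SLC38A3* (ENSDARG00000091061), also of system N, was at 173, 170, 168 and 161 CPM against 137, 141, 136 and 157 CPM. No values overlapped, and the log2 fold change was -0.23 ± 0.05 (adjusted p = 0.00036 by edgeR).

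The SLC38 members of the lysosome changed in opposite directions. *slc38a9*, a lysosomal carrier that in mammals senses arginine for the kinase complex mTORC1, stood at 9.04, 6.62, 10.5 and 9.51 CPM in wild-type and 14.5, 14.5, 14.0 and 11.9 CPM in *miR-34a-/-* embryos. All mutant libraries were higher, with a log2 fold change of 0.61 ± 0.13 (adjusted p = 0.00028 by edgeR). *slc38a7*, which in mammals exports glutamine from lysosomes, was at 122, 106, 134 and 126 CPM in wild-type and 102, 101, 105 and 96.1 CPM in mutant libraries. The groups were adjacent but separate, with a log2 fold change of -0.28 ± 0.06 (adjusted p = 0.00033 by edgeR). Among the others, *slc38a8b*, a glutamine carrier known from the mammalian eye and brain, rose from 1.83, 1.04, 1.76 and 1.12 CPM to 2.82, 3.64, 3.79 and 2.89 CPM. The fitted rise was 2.23-fold with no overlap (1.16 ± 0.24, adjusted p = 0.00034 by edgeR). *SLC38A10* rose by less, from a range of 35.7 to 41.7 CPM to one of 42.3 to 50.2 CPM (0.25 ± 0.07, adjusted p = 0.0056 by edgeR). *SLC38A6* was the tested member of the family without a call (0.40 ± 0.19, adjusted p = 0.080 by edgeR).

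The SLC1 family was represented by its neutral amino acid exchangers, since each of its glutamate carriers was below the filter. *SLC1A5*, the glutamine exchanger ASCT2, stood at 135, 148, 150 and 133 CPM in wild-type and 120, 111, 99.4 and 113 CPM in *miR-34a-/-* libraries. The groups did not overlap, and the log2 fold change was -0.35 ± 0.06 (adjusted p = 8.3e-06 by edgeR). *SLC1A4*, or ASCT1, was at 1.37 to 1.89 CPM in wild-type and 1.22 to 1.48 CPM in mutant libraries and was not called (-0.18 ± 0.27, adjusted p = 0.61 by edgeR). In the SLC36 family, *slc36a1*, the proton-coupled carrier PAT1, was at 4.23, 3.31, 4.94 and 4.62 CPM in wild-type and 3.24, 2.64, 2.94 and 2.57 CPM in mutant embryos. The lowest wild-type value was just above the highest mutant value, and the log2 fold change was -0.60 ± 0.19 (adjusted p = 0.013 by edgeR). That call was lost without wild-type replicate 3 (-0.51, adjusted p = 0.059) and in DESeq2 (-0.59). *slc36a4*, a related carrier, ranged from 0.56 to 1.72 CPM in wild-type and from 0.61 to 1.36 CPM in mutant libraries (-0.33 ± 0.36, adjusted p = 0.48 by edgeR).

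In the SLC43 family the members with many counts differed little. *SLC43A2*, the facilitated carrier LAT4, stood at 494, 452, 574 and 513 CPM in wild-type and 502, 505, 473 and 488 CPM in *miR-34a-/-* libraries. The mutant values lay inside the wild-type range, and the log2 fold change was -0.05 with an approximate 95% interval of -0.14 to 0.05. *SLC43A1* (ENSDARG00000037393), or LAT3, was at 233, 237, 230 and 223 CPM against 237, 240, 251 and 241 CPM. Although these values did not overlap, by a small margin, the log2 fold change of 0.07 ± 0.04 was not called (adjusted p = 0.17 by edgeR). *SLC43A3* (ENSDARG00000057949), whose mammalian counterpart carries purine bases and not amino acids, gave -0.12 ± 0.08 (adjusted p = 0.23 by edgeR). *slc43a2a*, the rare copy of LAT4, rose from 1.26, 0.85, 0.62 and 0.98 CPM to 1.99, 2.09, 1.96 and 2.05 CPM. All mutant libraries were higher, with a log2 fold change of 1.16 ± 0.28 (adjusted p = 0.0016 by edgeR). Of the wild-type libraries only replicate 1 reached 1 CPM, so *slc43a2a* passed the filter through the mutant libraries.

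The SLC6 family contained the largest falls, both in members with few counts. *slc6a16a*, an orphan carrier, was at 1.37, 7.19, 6.17 and 14.7 CPM in wild-type and 1.67, 0.82, 1.35 and 0.71 CPM in *miR-34a-/-* libraries. The wild-type libraries spread widely and replicate 1 lay among the mutant values, whereas the mutant libraries were all low. The log2 fold change was -2.72 ± 0.42 (adjusted p = 6.9e-06 by edgeR), and it was -3.05 to -2.23 when single libraries were left out. *SLC6A2*, the noradrenaline carrier, which the rule takes in although it moves no amino acid, had 10, 11, 14 and 11 counts in wild-type and 5, 2, 2 and 2 counts in mutant libraries. These are 1.14, 1.04, 1.23 and 1.54 CPM against 0.52, 0.18, 0.24 and 0.13 CPM, without overlap, and 3 of the mutant libraries were below the floor of 3 counts. The fitted log2 fold change was -2.24 ± 0.43 (adjusted p = 0.00012 by edgeR). *SLC6A2* passed the filter only through its wild-type libraries. *slc6a7*, the proline carrier known from the brain, had the most counts of the family and rose from 74.7, 70.5, 66.6 and 64.8 CPM to 87.2, 82.3, 89.5 and 96.4 CPM. The groups were separate (0.36 ± 0.06, adjusted p = 1.2e-05 by edgeR). The copy *slc6a16b* was at 41.9 to 46.8 CPM in wild-type and 38.8 to 42.1 CPM in mutant libraries and was not called (-0.15 ± 0.06, adjusted p = 0.058 by edgeR). The serotonin carrier *SLC6A4* (-0.29), the glycine carrier *SLC6A9* (0.15) and *slc6a22.1* (-0.14) were not called either, with adjusted p-values of 0.42, 0.64 and 0.28 by edgeR.

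**Figure D3:**
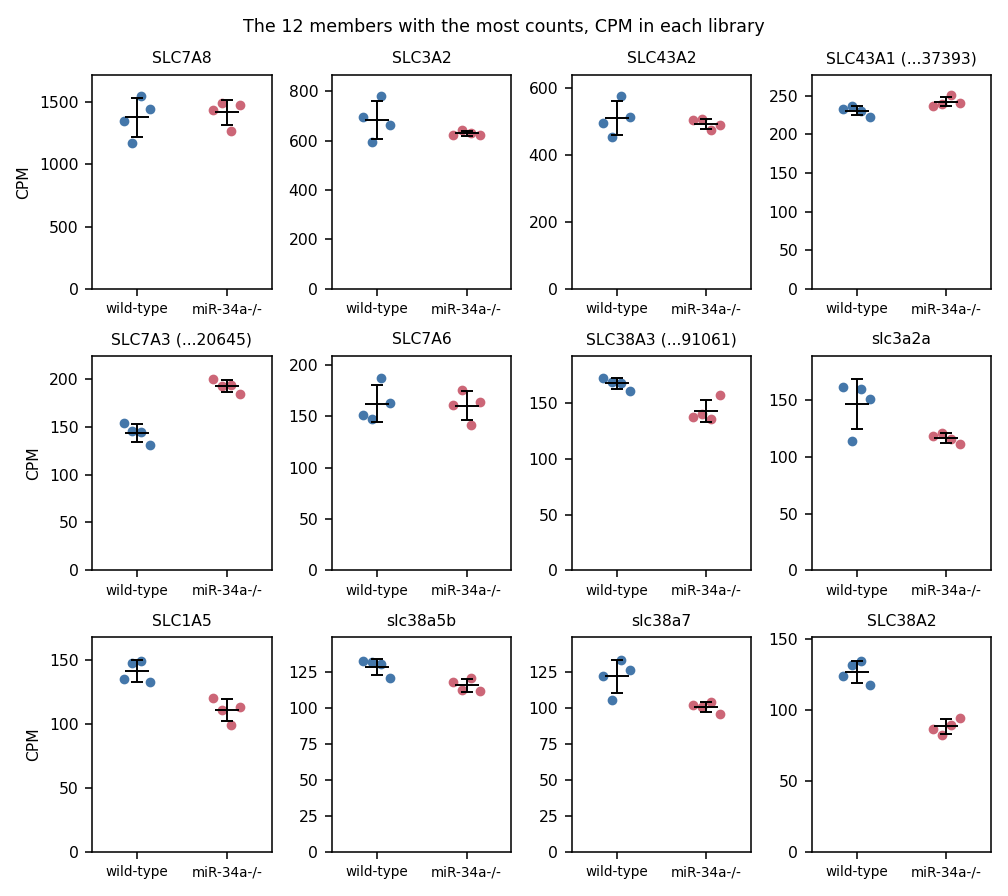
CPM of the 12 members with the most counts in each wild-type (blue) and *miR-34a-/-* (red) library, with the mean and SD in black and a y axis from 0. *SLC7A8*, *SLC3A2* and *SLC43A2* overlap between genotypes, while *SLC7A3* (ENSDARG00000020645) is higher and *SLC38A2*, *SLC1A5* and *slc38a7* are lower in every mutant library.

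Large changes were found among members with few counts. Of the 19 members with a mean of at least 20 CPM over all libraries, 4 were higher and 7 lower, but only 1, *SLC7A1*, passed 1.5-fold, and the median size of the log2 fold change was 0.23. Of the 19 members under 20 CPM, 4 were higher and 8 lower, 11 of them past 1.5-fold, with a median size of 0.61. All genes had the same order, with median sizes of 0.15 for 5880 genes at or above 20 CPM and 0.34 for 7962 genes below it. The share of all genes past 1.5-fold with an adjusted p-value under 0.05 was 5.56% in the upper class and 26.5% in the lower. Among members, the lower class holds *SLC6A2*, *slc3a1* and *slc43a2a*, which passed the filter only through the group where they were high. Such entry favours large differences, and a call at few counts needs a larger change. Shares of all genes called at any size were not worked out by class. Over both classes they were 23.0% higher and 22.4% lower, so the counts of members higher and lower have no background at their own level.

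Copies of a gene were compared by the log2 ratio of their levels within a library (2 counts added, scaled to library size). This ratio depends on the scaling between libraries only through the added counts, which weigh most for copies with few counts. By the rule that symbols differ only by a final a or b, 1 pair could be tested. The log2 ratio of *slc6a16a* to *slc6a16b* was -4.75, -2.59, -2.88 and -1.65 in wild-type and -4.38, -5.38, -4.72 and -5.50 in *miR-34a-/-* libraries. It differed by -2.03, but the groups overlapped through wild-type replicate 1 (two-sided exact permutation test, p = 0.0857). When symbols had only to match after letter case and any final a or b were dropped, 4 more pairs could be tested. This choice was made after the symbols were seen, and p-values were adjusted over the 5 pairs. The ratio of *SLC38A5* to *slc38a5b* was -4.17, -3.69, -3.89 and -4.13 in wild-type and -5.02, -4.91, -4.65 and -4.94 in mutant libraries, a difference of -0.91. For *SLC3A2* over *slc3a2a* the difference was 0.20, for *SLC43A2* over *slc43a2a* it was -1.06, and for *SLC7A3* ENSDARG00000020645 over ENSDARG00000061566 it was 0.71. In each of these 4 pairs all mutant libraries lay on one side of all wild-type libraries (two-sided exact permutation test, p = 0.0286, the smallest that 4 against 4 libraries can give, adjusted p = 0.0357). For *SLC3A2* over *slc3a2a* the margin was very small, with the highest wild-type ratio at 2.380 and the lowest mutant ratio at 2.388. Where the authors' counting could not place reads shared by near-identical copies, their levels are uncertain. For other symbols nearly all reads fell on 1 copy: *SLC7A8* had 115440 counts and *slc7a8b* 32, and *SLC38A3* had 12784 counts on ENSDARG00000091061 and 74 on ENSDARG00000027065.

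**Figure D4:**
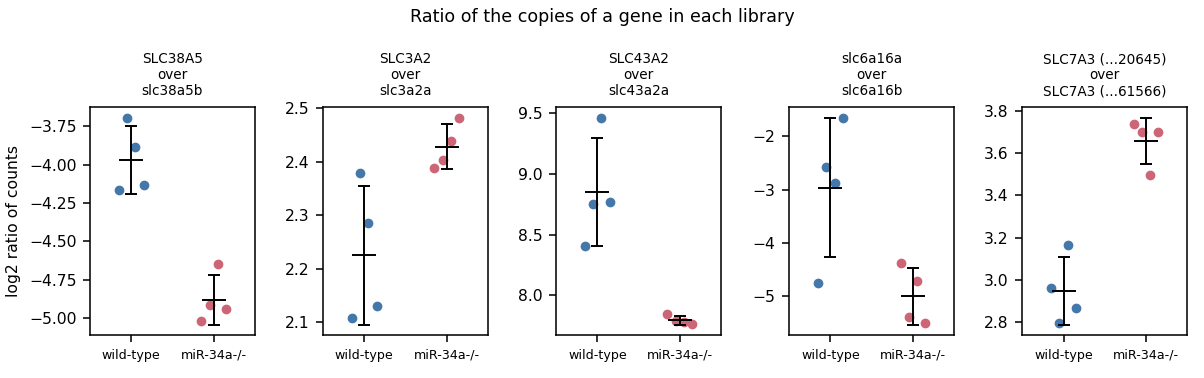
Log2 ratio of the levels of a gene's copies in each wild-type (blue) and *miR-34a-/-* (red) library, with the mean and SD in black and a separate y axis for each pair. The genotypes are separate for 4 pairs, with differences of -0.91, 0.20, -1.06 and 0.71, and overlap for *slc6a16a* over *slc6a16b*. The separation is very narrow for *SLC3A2* over *slc3a2a*.

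The readable part of the study's sheet of predicted miR-34 targets listed 12 members by Ensembl identifier, of which 5 were tested. *slc43a2a* was higher in *miR-34a-/-* embryos, *slc38a7*, *slc7a4* and *SLC7A3* (ENSDARG00000061566) were lower, and *SLC7A8* was not called, with the values given above. Over all genes tested, 23.0% were higher and 22.4% lower, and these directions were not tested as a set. The other 7 were below the filter: *slc7a2* (28 counts over all libraries), *slc6a5* (18), *slc7a10* (ENSDARG00000008100, 15), *SLC38A8* (4), *slc7a14b* (2), *slc6a17* (0) and *slc6a6a* (0). The sheet was held only in part, so listed and unlisted members were not compared.

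Related gene lists did not move as one. Of 19 genes for carriers outside the 7 families, 9 were tested, of which 3 were higher and 1 lower (23.0% and 22.4% of all genes), with a median log2 fold change of 0.23. *SLC16A10*, the aromatic amino acid carrier TAT1, rose by 0.24 ± 0.06 (adjusted p = 0.0020 by edgeR) and *tmem104* by 0.86 ± 0.24 (adjusted p = 0.0042). *SLC33A1*, which in mammals carries acetyl-CoA and not amino acids, rose by 0.52 ± 0.17 (adjusted p = 0.016). *MFSD12*, needed for cysteine import into lysosomes and melanosomes in mammals, was at 36.4, 28.5, 34.4 and 32.2 CPM in wild-type and 19.9, 21.0, 22.6 and 23.9 CPM in mutant libraries, a separate and lower group (-0.58 ± 0.09, adjusted p = 3.4e-06).

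The amino acid response, in which lack of amino acids activates the transcription factor Atf4 and through it carriers and enzymes of amino acid synthesis, had 31 genes, of which 28 were tested, 10 higher and 8 lower (23.0% and 22.4% of all genes), with a median of -0.02. *atf4a* was at 373 to 409 CPM in wild-type and 366 to 385 CPM in *miR-34a-/-* embryos and was not called (-0.04, adjusted p = 0.39 by edgeR). *atf4b* rose from 117, 124, 118 and 101 CPM to 144, 154, 146 and 152 CPM, without overlap (0.37, adjusted p = 2.3e-06 by edgeR). Enzymes of the list went both ways. *PSAT1*, of serine synthesis, fell from 32.7, 41.4, 30.5 and 31.5 CPM to 20.1, 19.2, 18.8 and 17.6 CPM (-0.86), and *pycr1a*, of proline synthesis, also fell (-0.83). *ALDH18A1*, which starts proline synthesis, rose from 56.2, 51.5, 50.0 and 56.7 CPM to 77.1, 75.1, 82.5 and 82.2 CPM (0.57). *eif4ebp3l*, an inhibitor of translation, was at 420, 410, 426 and 401 CPM in wild-type and 249, 242, 252 and 232 CPM in mutant libraries (-0.77), while *nupr1a*, a stress regulator, and *eif2s1b*, a subunit of the initiation factor eIF2, rose by 0.67 and 0.66.

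The list for amino acid sensing by mTORC1 held 46 genes, of which 42 were tested, 9 higher and 8 lower, with a median of 0.07. These counts are near the shares of all genes, 23.0% higher and 22.4% lower. Besides sensors, the list takes in subunits of mTORC1 such as *MTOR* and *RPTOR*, and targets such as *rps6kb1b* and *eif4ebp1*. *eif4ebp1*, called lower, and *sesn2*, not called, are counted in the amino acid response list too. The CASTOR genes, named for an arginine sensor of mTORC1, went apart. *castor1* rose from 0.57, 0.85, 0.18 and 0.28 CPM to 1.15, 1.18, 1.71 and 1.03 CPM (1.35), and *CASTOR2* fell from 240, 207, 268 and 242 CPM to 192, 198, 171 and 191 CPM (-0.35), both without overlap. For *castor1*, wild-type replicates 3 and 4 lay under the floor of 3 counts. Only the mutant libraries of *castor1* reached 1 CPM, so it passed the filter through the group where it was high. *FNIP2*, a partner of folliculin, fell from 41.1, 32.9, 49.8 and 41.8 CPM to 19.4, 19.2, 20.7 and 19.2 CPM (-1.08), and *tfe3b*, for a transcription factor of lysosomal genes, fell by 0.82 on the log2 scale. *tbc1d7*, a subunit of the complex that restrains mTORC1, rose from 3.66, 3.97, 4.41 and 4.48 CPM to 8.57, 7.74, 7.22 and 8.79 CPM (0.98), and *lamtor4*, of the lysosomal Ragulator complex, rose by 0.68. These named genes all passed the test.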

How the data were processed

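Polyadenylated RNA of whole embryos at 8 hpf was sequenced in 8 libraries. The authors trimmed reads with Trim Galore 0.4.4, mapped them with STAR 2.7.8 to danRer11 and deposited whole-number counts per Ensembl gene, without normalization. The counting program, annotation release and use of strand are not given in the sources used here. Groups and replicate numbers were taken from the sample labels, and each of the 8 columns of counts was matched by name.

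Symbols came from the study's supplementary sheets and a table of gene names, for 29402 genes. Without a genome of this build or sequence tables, no coordinates, promoters or proteins are shown. Members and lists were chosen with earlier results of these data known. From the counts, CPM and log2 fold changes were computed with edgeR 4.0.16 in R 4.3.3 (TMM, filterByExpr, genotype as the only term), with the quasi-likelihood test and Benjamini-Hochberg adjustment over 13842 genes. The SE is the size of the log2 fold change divided by the square root of F, and approximate 95% intervals use this SE and the normal distribution. On data drawn with known changes for 13810 genes, 90.65% of 2-fold and 100% of 4-fold changes were recovered, and 2.56% of calls were false. The changes were placed in 200 genes above 2 CPM, whereas 6280 genes were called in the real data. All genes were given the same spread beyond counting error. The rates therefore do not cover smaller changes, members at lower CPM or members that spread widely within a genotype. They also do not cover data in which as many genes differ as here. Intervals include the spread between the libraries of a genotype, while floors cover counting error only.

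Named members were those past 1.5-fold with an adjusted p-value under 0.05, the 2 with most counts in each family, the CD98 heavy chains and LAT1, tested copies, and members of the predicted target sheet. *SLC38A2*, *SLC38A4*, *SLC38A10*, *SLC38A6*, *SLC7A6*, *SLC7A6OS*, *SLC7A10*, *SLC43A3*, *SLC6A4*, *SLC6A9* and *slc6a22.1* are named outside the rule, after their values were seen, as are the untested genes *SLC7A9*, *slc7a1a*, *slc7a8b*, the second *SLC38A3*, *slc7a11*, *SLC6A3* and *SLC1A7*. In the other lists, up to 3 called genes in each direction are named, with *atf4a* and *atf4b*. Alternatives were RLE, total-count and upper-quartile scaling, other filters, the likelihood ratio test, glmTreat, limma-voom (limma 3.58.1), DESeq2 1.42.0, a replicate block, other added counts for ratios, and leaving out each library. Plots were made with matplotlib 3.10.9 (Python 3.11.15).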

Additional observations from a re-analysis of the deposited data

Results flagged for a closer look

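The values of 70 groups of 4 libraries were searched for a library set apart from the other 3 by Dixon's criterion, which flags about 1 in 20 groups by chance, and 3 were found. *SLC38A5* was at 4.65 CPM in *miR-34a-/-* replicate 3, while the other mutant libraries lay between 3.45 and 3.55 CPM. *slc3a1* was at 0.140 CPM in wild-type replicate 4, the library with the fewest counts, where this is a single count, while the others lay between 0.793 and 0.851 CPM. The log2 ratio of *SLC7A3* ENSDARG00000020645 to ENSDARG00000061566 was 3.50 in *miR-34a-/-* replicate 3, against 3.70 to 3.74 in the other mutant libraries. In all 3 cases the library lay outside the range of the other genotype.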

How the results depend on the processing

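The main counts of 8 higher and 15 lower members were the same under RLE scaling, the likelihood ratio test, limma-voom and a filter of 1 CPM in 4 libraries. DESeq2 gave 8 and 13 (14 members without an adjusted p), total-count and upper-quartile scaling 8 and 17, and no filter 9 and 20. DESeq2 fitted 61 members and the fit without a filter 75, in place of 38. Testing against 1.5-fold (glmTreat) left 3 higher and 3 lower. Over all genes, the main fit called 6280, DESeq2 5418, total-count scaling 6337, upper-quartile scaling 6311, no filter 6995 and glmTreat 1078. Leaving out single libraries gave 8 to 9 higher and 13 to 16 lower, the 13 without wild-type replicate 3, where *slc36a1* lost its call and *SLC6A2* fell below the filter. Same-numbered libraries did not deviate together (correlations of -0.03 to 0.01), and with the replicate block 8 were higher and 15 lower. The pair by the strict symbol rule was called in 0 to 1 cases when single libraries were left out, called only without wild-type replicate 1, and the wider pairing gave 4 of 5. An exact sign-flip test of the paired ratios cannot go below p = 0.125, and no other paired test of them was run. Among the 7 uncalled members for which alternatives were computed gene by gene, 2 changed sign: *SLC7A8* to -0.030 without wild-type replicate 2 (range -0.030 to 0.10 over left-out libraries) and *SLC43A2* to 0.013 without wild-type replicate 3 (range -0.10 to 0.013). *slc6a16b* was called without wild-type replicate 1 (-0.18) and under total-count and upper-quartile scaling (-0.16 and -0.17). In DESeq2 the mTORC1 list had 5 higher and 5 lower (9 and 8 in edgeR), and the carriers outside the families had 2 lower (1 in edgeR), as without a filter. With glmTreat, the amino acid response had 0 higher and 2 lower, the mTORC1 list 1 and 1, and the carriers outside the families 0 and 0. Without a filter, calls appeared in members near the floor: *slc7a10* (ENSDARG00000008100, 13 counts in wild-type and 2 in mutant libraries), *SLC1A7* (ENSDARG00000034940, 13 and 2), *slc7a11* (14 and 2) and *SLC43A3* (ENSDARG00000059682, 7 and 0) were lower, and *SLC6A3* (5 and 22, of which 13 in 1 mutant library) was higher. No scaling moved the median of all genes by 0.1. Depth limits the members under about 1 CPM, where a library holds about 10 counts.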
